A study of Drosophila melanogaster with 34 samples.

Results

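JUT-008 is an inbred European strain of *Drosophila melanogaster* that the sample descriptions class as sensitive to copper, and the response described here is that of its adult females to copper sulphate. The response was read from the 3 copper and the 3 control RNA-seq libraries labelled with this strain, 6 of the 34 libraries of a study of 6 strains. For the copper group, females were kept for 24 h on filter paper carrying 20 mM CuSO4 in 5% sucrose, and for the control group on the same solution without CuSO4. Each library was made from the whole bodies of 20 pooled mated females, 3 to 7 days old according to the sample descriptions, although the study's methods begin the age range a day later. The strain was wild-derived and inbred for 20 generations, carries no transgene, and stands for a single genetic background. According to the methods, JUT-008 females that had died by 24 h were removed before RNA extraction, so the copper libraries represent survivors, and the libraries of a group were those with the best RNA quality among its biological replicates. The other strains used in the comparisons are COR-018 and AKA-018, also classed as sensitive, and GIM-012, MUN-008 and MUN-020, classed as tolerant.

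Copper is an essential cofactor that becomes toxic in excess, and flies buffer it with metallothioneins, small cysteine-rich proteins that bind the metal and whose genes are switched on by the metal-responsive transcription factor MTF-1. Much of the ingested metal is taken up and stored in the midgut, where a group of acid-secreting cells, named copper cells because they accumulate the metal, acidify the lumen with a vacuolar proton pump, the V-ATPase. The midgut also secretes serine peptidases, maltases and lipases for digestion. In the ovary, the follicle cells deposit the vitelline membrane and the chorion around the oocyte late in oogenesis, and the fat body and follicle cells supply yolk protein.

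The JUT-008 libraries held 28291725 to 31130011 counted reads in the copper group and 26185356 to 30735696 in the control group. Although the libraries were labelled as female, male transcripts varied widely among them. The summed level of the accessory gland genes, which encode seminal proteins, was 16.2, 0.0689 and 50.2 CPM (read counts scaled by the effective size of each library) in copper replicates 1, 2 and 3, against 180, 84.1 and 0.0968 CPM in control replicates 1, 2 and 3. The testis genes summed to 161, 32.6 and 275 CPM in the copper replicates, against 413, 153 and 35.8 CPM in the control replicates. Copper replicate 2 and control replicate 3 were therefore the lowest of their groups in both lists, and the groups overlapped. The Y-linked genes ranged from 0.172 to 2.89 CPM in copper libraries and from 0.0645 to 3.97 CPM in control libraries, and the *roX* RNAs of male dosage compensation from 2.03 to 10.6 CPM and from 1.36 to 14.0 CPM in the same groups. Neither list separated the groups. In an exact two-sided permutation test, for which 3 against 3 libraries allow no p below 0.1, the accessory gland sum had a p of 0.3 and the other 3 lists p-values of 0.6 to 0.8 (0.8 for each list after Benjamini-Hochberg adjustment over the 4 lists).

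The first principal component of log2 CPM, with 57.4% of the variance, ordered the libraries as the accessory gland sum did. Its scores were -1.01, -44.8 and 18.5 in copper replicates 1, 2 and 3, and 41.7, 19.3 and -33.6 in control replicates 1, 2 and 3. The second component, with 30.8%, separated the treatments, with scores of 10.7 to 29.2 in copper libraries and -28.0 to -12.9 in control libraries. Copper replicate 2 and control replicate 3 are therefore reported apart wherever a result rests on them.

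**Figure D1:**
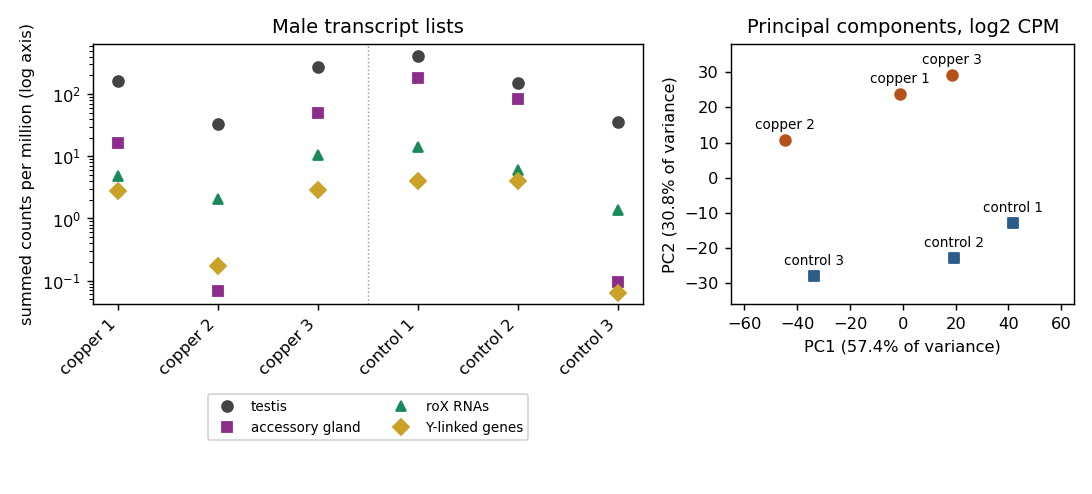
Left, summed CPM (log axis) of 4 lists of male transcripts in each JUT-008 library, copper libraries left of the dotted line and control libraries right of it. Right, scores of the same 6 libraries on the first and second principal components of log2 CPM. Copper replicate 2 and control replicate 3 have the lowest accessory gland sums of their groups (0.0689 and 0.0968 CPM) and the lowest scores on the first component (-44.8 and -33.6), while the second component separates copper from control libraries.

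Most of the genes called as changed by copper in JUT-008 females fell. Differentially expressed genes (DEGs) were those with an adjusted p below 0.05 in the quasi-likelihood test of edgeR, with Benjamini-Hochberg adjustment over all genes tested, and a fold change over 1.5. Of 11021 genes tested, 453 were DEGs (4.11%), of which 110 rose (0.998% of the genes tested) and 343 fell (3.11%). An unadjusted p below 0.05 in edgeR was reached by 2040 of the 11021. That count stands beside the unadjusted counts given for gene lists below. By fold, 27 DEGs rose and 81 fell by more than 2 on the log2 scale, whereas the median log2 fold change of all genes tested was -0.000407. In each of the 453 DEGs the 3 copper libraries lay wholly above or wholly below the 3 control libraries. That was also so for 1145 of all genes tested in the upward direction (10.4%) and 1568 in the downward direction (14.2%).

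The number of DEGs depended on which library was present. It was 192, 266 and 287 without copper replicate 1, 2 and 3, and 206, 193 and 746 without control replicate 1, 2 and 3. DEGs that fell made up 75.7% with all 6 libraries, 60.5% without copper replicate 2 and 82.0% without control replicate 3. With both of these libraries left out there were 799 DEGs, which included 442 of the 453. With the summed level of male transcripts as a covariate there were 886, which included 448 of the 453. Set against each other, copper replicate 2 and control replicate 3 differed by more than 1.5-fold, in the same direction, in 426 of the 453 DEGs. This describes 2 libraries and is no test, since both took part in the calls and no DEG overlapped between groups. The direction was therefore fixed beforehand, and the share over all genes tested was not computed. None of the members of the 4 male lists was a DEG by edgeR, DESeq2 or limma-voom, and 0 had an unadjusted p below 0.05 in edgeR. With the male covariate 2 accessory gland genes fell, and without the 2 libraries 3 did.

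The metallothioneins rose the most as a group. Of the 6 genes measured, 5 were DEGs, all upward, and the median log2 fold change of the 6 was 3.66. *MtnB*, on chromosome 3R at 20503102 to 20503746 of the dm6 genome, had 206, 133 and 280 CPM in copper libraries, against 6.33, 3.18 and 3.00 CPM in control libraries. The lowest copper library was thus far above the highest control library, and the log2 fold change was 5.64 ± 0.41 (SE; adjusted p = 0.00116, edgeR). *MtnD* had 92.6, 63.5 and 129 CPM in copper libraries, against 2.59, 2.33 and 2.13 CPM in control libraries, a log2 fold change of 5.34 ± 0.30 (SE). *MtnE* had 75.0, 55.3 and 108 CPM in copper libraries, against 3.58, 3.84 and 2.13 CPM in control libraries, a log2 fold change of 4.65 ± 0.33 (SE). In all 3 of these genes copper replicate 3 was the highest and copper replicate 2 the lowest copper library.

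*MtnC* rose to 79.2, 65.0 and 95.9 CPM in copper libraries, against 15.1, 15.8 and 7.07 CPM in control libraries. *MtnA* rose to 1999, 1755 and 2620 CPM in copper libraries, against 647, 605 and 394 CPM in control libraries. The log2 fold change was 2.67 ± 0.31 for *MtnC* and 1.95 ± 0.23 for *MtnA* (SE). Control replicate 3 was the lowest control library in both, and the groups did not overlap. *MtnF* had 1.45, 0.413 and 2.16 CPM in copper libraries and 2.91, 1.29 and 0.452 CPM in control libraries, and its log2 fold change of -0.20 ± 0.79 (SE) did not pass the test (adjusted p = 0.917, edgeR). The 5 called metallothioneins kept their call whichever library was left out. Against the mean response of the other 5 strains, none of the 6 passed the test of a difference (adjusted p of 0.197 to 0.997, edgeR).

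Genes that move copper into, within and out of cells did not pass the test. Of 9 copper transporters, chaperones and regulators tested, none was a DEG by edgeR, DESeq2 or limma-voom, and 0 had an unadjusted p below 0.05. The copper exporter *ATP7* had 71.8, 72.7 and 65.3 CPM in copper libraries, against 63.5, 61.5 and 62.9 CPM in control libraries, a log2 fold change of 0.16 ± 0.07 (SE; adjusted p = 0.288, edgeR). The importers *Ctr1A* and *Ctr1B* had log2 fold changes of -0.08 ± 0.11 and -0.38 ± 0.27, the chaperones *Atox1* and *Ccs* of -0.04 ± 0.07 and -0.11 ± 0.09, the metal transporter *Mvl* of -0.09 ± 0.09, and *MTF-1* of 0.05 ± 0.09 (SE each). The copper libraries of *ATP7* lay above its control libraries, whereas those of *Ctr1A* and *MTF-1* overlapped, with a difference smaller than its SE.

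Among 9 zinc importers 1 fell. *Zip42C.2* had 0.0967, 0.172 and 0.317 CPM in copper libraries, against 2.20, 2.33 and 1.55 CPM in control libraries, a log2 fold change of -3.34 ± 0.50 (SE; adjusted p = 0.0148, edgeR). Its call was lost without copper replicate 1 or 2 or control replicate 1 or 2 (adjusted p of 0.0592 to 0.0788, edgeR). None of the 6 zinc exporters tested was a DEG by any of the 3 tools, with 0 at an unadjusted p below 0.05. Of 9 iron genes, *Tsf1*, which encodes the haemolymph iron carrier transferrin, fell by 0.77 ± 0.12 on the log2 scale (SE; adjusted p = 0.0202, edgeR), a call lost without any of the copper libraries or control replicate 2 (adjusted p of 0.0671 to 0.108).

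**Figure D2:**
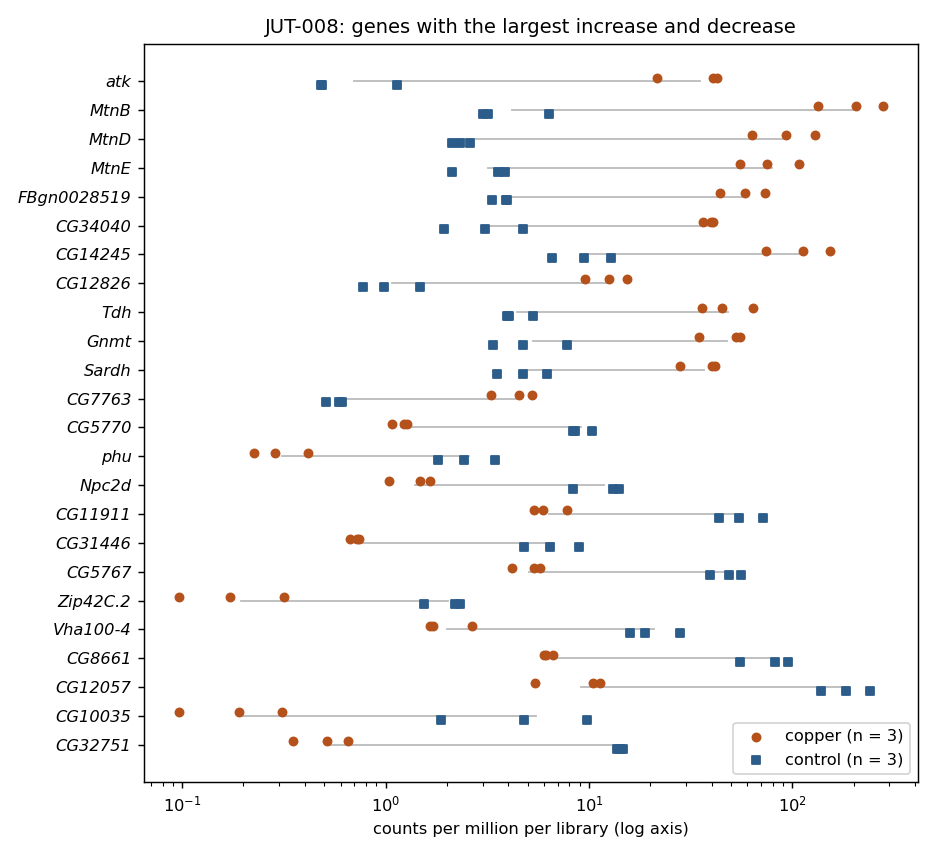
CPM (log axis) of the genes that changed most in JUT-008, 12 upward and 12 downward, with 3 copper libraries (circles) and 3 control libraries (squares) per gene and a grey line joining the group means. In every gene shown the circles and squares do not overlap. *atk* and *MtnB* lead the increases (log2 fold changes of 5.65 and 5.64) and *CG32751* the decreases (-4.80).

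The largest increase of all belonged to *atk* (artichoke), which encodes an extracellular protein with leucine-rich repeats. It had 40.7, 21.6 and 42.6 CPM in copper libraries, against 1.14, 0.480 and 0.484 CPM in control libraries, a log2 fold change of 5.65 ± 0.43 (SE; adjusted p = 0.00123, edgeR). Copper replicate 2 was the lowest copper library and still exceeded each control library. On chromosome 3L, *atk* at 20454690 to 20464862 and *Tdh*, which encodes threonine dehydrogenase, at 20466944 to 20469592 are separated by 2081 bases. *Tdh* rose to 44.8, 35.9 and 64.2 CPM in copper libraries, against 4.05, 5.32 and 3.97 CPM in control libraries, a log2 fold change of 3.44 ± 0.25 (SE; adjusted p = 0.00116, edgeR). *MtnE* and *MtnD* are also neighbours, 257 bases apart, and the pair lies 30274 bases from *MtnB*. Among the genes with the largest decrease, *CG5770* and *CG5767* are 1312 bases apart on chromosome 2R.

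Several of the 24 genes carry only an annotation number as a name. FBgn0028519, which has no symbol in the annotation used, had 58.7, 44.0 and 73.6 CPM in copper libraries, against 3.34, 3.92 and 3.97 CPM in control libraries, a log2 fold change of 3.97 ± 0.21 (SE). *CG34040* (3.59), *CG14245* (3.57), *CG12826* (3.54) and *CG7763* (2.92) rose with it on the log2 scale. *CG32751* had 0.516, 0.654 and 0.349 CPM in copper libraries, against 14.2, 14.6 and 13.6 CPM in control libraries, a log2 fold change of -4.80 ± 0.26 (SE; adjusted p = 0.000798, edgeR). Its 3 control libraries lay within 1 CPM of one another, including control replicate 3. *CG12057* (-4.36), *CG8661* (-3.63), *CG5767* (-3.24), *CG31446* (-3.23), *CG11911* (-3.15) and *CG5770* (-2.92) fell likewise. *CG10035* fell by 4.75 on the log2 scale (adjusted p = 0.0179, edgeR), but its call was lost without any of the copper libraries or without control replicate 2 (adjusted p of 0.0561 to 0.0943). *phu*, an alkaline phosphatase gene, fell by 3.04 (adjusted p = 0.0098), and its call was lost without copper replicate 1 (adjusted p = 0.0606) or control replicate 2 (0.0511). Apart from these 2 genes and *Zip42C.2*, the calls of the 12 genes with the largest decrease, and of the 12 with the largest increase, were kept whichever library was left out.

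Of the 3 markers of the acid-secreting cells of the midgut 1 was a DEG by edgeR and limma-voom, downward, and DESeq2 called all 3 downward. *Vha100-4*, on chromosome 3R at 18386841 to 18389805, encodes an isoform of the membrane subunit a of the V-ATPase. It had 2.64, 1.65 and 1.71 CPM in copper libraries, against 18.8, 28.0 and 15.8 CPM in control libraries. The copper libraries lay well below the lowest control library, and the log2 fold change was -3.38 ± 0.30 (SE; adjusted p = 0.00193, edgeR), with the call kept whichever library was left out. The other 2 markers, the transcription factor genes *lab* and *Ptx1*, had log2 fold changes of -1.76 ± 0.43 and -0.85 ± 0.25 (SE) and did not pass the test (adjusted p of 0.0771 and 0.13, edgeR). All 3 markers were lower at an unadjusted p below 0.05 in edgeR. With the male covariate all 3 were called, and without copper replicate 2 and control replicate 3 only 1 was. Of 20 V-ATPase subunits tested, *Vha100-4* was the only DEG by edgeR and limma-voom, DESeq2 called 2, and the median of the 20 was -0.11. In whole-body RNA, fewer cells of a type and less RNA per cell cannot be told apart.

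Among digestive enzymes of the midgut, serine peptidases fell, whereas some maltases rose and lipases moved in both directions. Of 27 serine peptidases tested, 15 fell and none rose, with a median log2 fold change of -1.08 against -0.000407 for all genes tested. Summed over the list, copper libraries had 2032, 2062 and 1846 CPM, against 5151, 5462 and 2709 CPM in control libraries. Control replicate 3 was the lowest control library and still above each copper library. The number of peptidases that fell was 6, 5 and 7 without copper replicate 1, 2 and 3, and 6, 5 and 22 without control replicate 1, 2 and 3. It was 23 without both copper replicate 2 and control replicate 3, and 21 with the male covariate. None of the peptidases rose under any of these settings.

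*thetaTry*, a trypsin gene, had 15.9, 20.0 and 17.4 CPM in copper libraries, against 99.9, 120 and 77.8 CPM in control libraries, a log2 fold change of -2.48 ± 0.18 (SE; adjusted p = 0.00116, edgeR). The chymotrypsin-like *Jon99Fii* had 37.4, 41.4 and 30.8 CPM in copper libraries, against 161, 162 and 126 CPM in control libraries, a log2 fold change of -2.04 ± 0.15 (SE; adjusted p = 0.00116, edgeR). These genes, together with *Jon99Fi* (-2.18) and *Jon65Ai* (-1.60), were low in the copper libraries as a whole and kept their call whichever library was left out. *Jon65Aiv* had 119, 120 and 111 CPM in copper libraries, against 433, 405 and 229 CPM in control libraries, a log2 fold change of -1.61 ± 0.23 (SE; adjusted p = 0.0135, edgeR). Its call was lost without copper replicate 1 (adjusted p = 0.0816), copper replicate 2 (0.061) or control replicate 2 (0.0587). Control replicate 3 stood nearest to the copper libraries in *Jon65Aiv*.

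The Niemann-Pick type C genes, which handle sterols, showed a like pattern, with 4 of 9 down, none up and a median of -1.09. *Npc2d* had 1.48, 1.03 and 1.65 CPM in copper libraries, against 14.0, 13.1 and 8.32 CPM in control libraries, a log2 fold change of -3.08 ± 0.29 (SE; adjusted p = 0.00242, edgeR). *Npc1b*, which is needed for uptake of dietary sterol in the midgut, had 1.84, 1.21 and 0.634 CPM in copper libraries, against 8.26, 10.6 and 8.61 CPM in control libraries, a log2 fold change of -2.90 ± 0.39 (SE; adjusted p = 0.0101, edgeR). In both genes the groups were far apart, and the call of *Npc1b* was lost only without control replicate 2 (adjusted p = 0.0513). *Npc2f* (-1.68) and *Npc2g* (-1.09) also fell, the last with its call lost without copper replicate 1 or 2 or control replicate 1 or 2 (adjusted p of 0.0877 to 0.128). The number of genes of the list that fell ranged from 2, without control replicate 2, to 5, without control replicate 3.

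Lipases moved in both directions, with 1 of 11 up and 2 down. *mag* (magro), a lipase secreted by enterocytes, fell to 28.6, 31.0 and 27.9 CPM in copper libraries, against 132, 151 and 84.5 CPM in control libraries, a log2 fold change of -2.07 ± 0.21 (SE; adjusted p = 0.00294, edgeR). *CG5966*, a lipase-like gene, rose to 96.3, 64.5 and 87.3 CPM in copper libraries, against 19.1, 19.0 and 19.7 CPM in control libraries, a log2 fold change of 2.10 ± 0.15 (SE; adjusted p = 0.00116, edgeR). The control libraries of *CG5966* were nearly alike, control replicate 3 included. Of 43 peritrophins and chitin genes, 5 fell and none rose, led by *Peritrophin-15a* with 2.93, 3.10 and 2.5999 CPM in copper libraries, against 21.3, 15.9 and 12.7 CPM in control libraries. The median log2 fold change of the 43 was -0.03, and 1 to 5 of them fell when a library was left out.

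Markers of midgut cell types gave a mixed picture. Of 9 enterocyte markers 3 fell (*mag*, *Npc2f* and *Jon65Aiii*), or 2 to 5 when a library was left out, and the list summed to 949, 960 and 882 CPM in copper libraries, against 2239, 2593 and 1117 CPM in control libraries. *mag* and *Npc2f* are also counted in the lipase and Niemann-Pick lists above. Of 8 enteroendocrine markers the peptide gene *CCHa2* fell, by 1.17 ± 0.12 on the log2 scale (SE; adjusted p = 0.00341, edgeR). The 4 markers of intestinal progenitors tested included no DEG by edgeR, DESeq2 or limma-voom and 0 at an unadjusted p below 0.05. Their sum was 283, 299 and 232 CPM in copper libraries, against 213, 204 and 271 CPM in control libraries, so the groups overlapped.

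Genes of the eggshell fell and none rose. Of 12 vitelline membrane genes 8 fell and none rose, with a median log2 fold change of -2.60, and of 15 chorion genes 9 fell and none rose, with a median of -1.80. The vitelline membrane genes summed to 1118, 1046 and 1054 CPM in copper libraries, against 2996, 2207 and 2513 CPM in control libraries. The chorion genes summed to 1046, 869 and 1142 CPM in copper libraries, against 3944, 3483 and 3175 CPM in control libraries. In both sums control replicate 3, with few male transcripts, lay with the other control libraries. The number of vitelline membrane calls was 8 whichever library was left out and with the male covariate. The number of chorion calls was 6, 7 and 8 without copper replicate 1, 2 and 3, and 4, 6 and 10 without control replicate 1, 2 and 3.

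*Vml*, which encodes a vitelline membrane-like protein, had 11.1, 19.6 and 18.7 CPM in copper libraries, against 92.8, 100.2 and 105 CPM in control libraries, a log2 fold change of -2.60 ± 0.21 (SE; adjusted p = 0.00161, edgeR). *Vm32E* had 7.38, 9.64 and 9.83 CPM in copper libraries, against 72.9, 46.1 and 48.2 CPM in control libraries, a log2 fold change of -2.64 ± 0.21 (SE). *ndl* (nudel), a protease gene of the follicle cells, had 9.03, 9.61 and 10.1 CPM in copper libraries, against 33.1, 32.3 and 36.8 CPM in control libraries, a log2 fold change of -1.83 ± 0.09 (SE; adjusted p = 0.000798, edgeR). In these genes copper replicate 1, not replicate 2, was the lowest library. *psd* (palisade) fell with them, by 2.68 on the log2 scale.

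Among the chorion genes, *dec* (defective chorion) had 46.8, 60.3 and 52.2 CPM in copper libraries, against 369, 298 and 414 CPM in control libraries, a log2 fold change of -2.76 ± 0.16 (SE; adjusted p = 0.000798, edgeR). The major chorion protein genes *Cp36* and *Cp38* had 154, 135 and 124 CPM and 205, 161 and 181 CPM in copper libraries. In control libraries *Cp36* had 697, 735 and 517 CPM and *Cp38* had 803, 1103 and 732 CPM. Their log2 fold changes were -2.24 ± 0.16 and -2.27 ± 0.18 (SE; adjusted p of 0.00116 and 0.00158, edgeR), and neither gene overlapped between groups. *dec*, *Cp36*, *Cp38* and *Femcoat* (-1.53) kept their call whichever library was left out. Of the 14 follicle cell markers, each of which is also in an eggshell list, 10 fell and the list had a median of -2.43.

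Earlier and other steps of egg production moved less. The 23 ovarian germline genes tested included no DEG by edgeR, DESeq2 or limma-voom, with 2 upward and 0 downward at an unadjusted p below 0.05, and their median log2 fold change was 0.14. They summed to 9751, 10467 and 9236 CPM in copper libraries, against 8633, 8125 and 9948 CPM in control libraries, an overlap due to control replicate 3. Of 25 DNA replication and cell cycle genes none was a DEG by any of the 3 tools, although each had a positive log2 fold change (median 0.18) and 6 had an unadjusted p below 0.05. Copper replicate 2 and control replicate 3 had the highest sums of their groups in both lists, 11144 CPM and 9849 CPM for the replication genes. The part of the male transcripts in these sums was not tested.

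Of 10 yolk and lipoprotein transport genes 3 fell, and 0 to 2 did when a library was left out. The yolk protein genes *Yp1* and *Yp2* fell by 0.95 and 0.96 on the log2 scale (adjusted p of 0.02 and 0.0182, edgeR). *Yp1* had 1879, 1857 and 2083 CPM in copper libraries, against 4561, 3647 and 3006 CPM in control libraries. Control replicate 3 was the control library nearest to the copper group, and both calls were lost without copper replicate 1 or 2 or control replicate 2 (adjusted p of 0.0517 to 0.109). Of 14 ovulation and sperm storage genes 2 fell and 1 rose. The one that rose was *Fst* (Frost), known for its induction by cold, with 66.8, 49.7 and 78.2 CPM in copper libraries, against 12.8, 12.0 and 13.6 CPM in control libraries, a log2 fold change of 2.34 ± 0.17 (SE; adjusted p = 0.00116, edgeR).

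**Figure D3:**
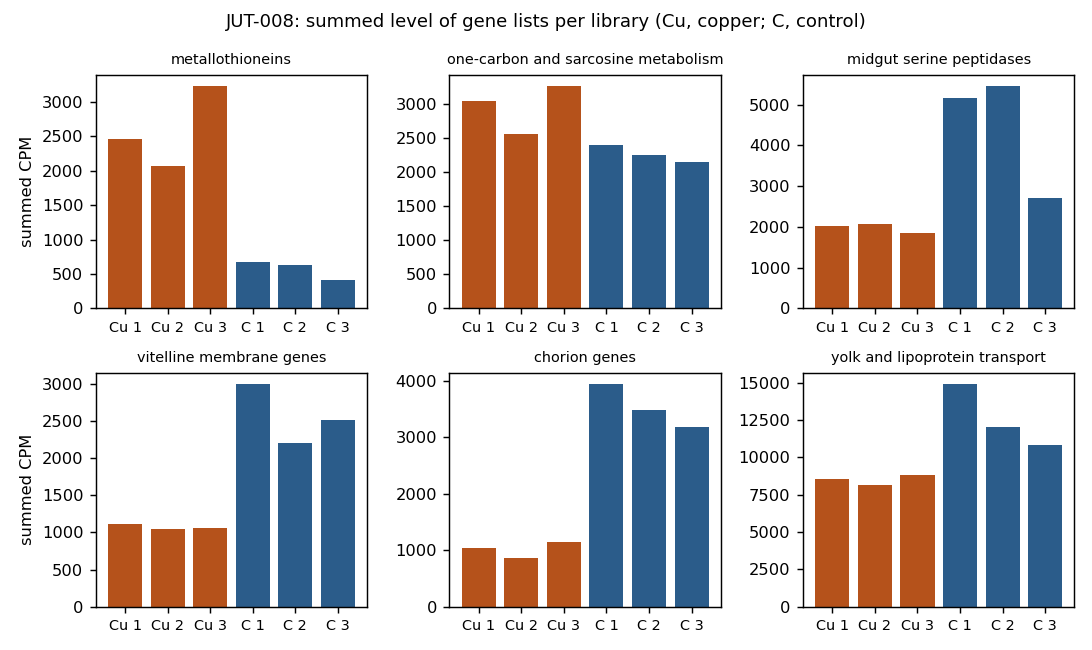
Summed CPM of 6 gene lists in each JUT-008 library, with the 3 copper libraries (Cu) left of the 3 control libraries (C). The metallothionein and one-carbon sums are higher, and the peptidase, eggshell and yolk sums lower, in each copper library than in each control library, and control replicate 3 has a peptidase sum of 2709 CPM, against 5151 and 5462 CPM in the other control libraries.

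A second group of genes that rose was that of one-carbon and glycine metabolism, in which 7 of 12 genes rose and none fell, with a median log2 fold change of 1.01. This pathway passes methyl and formyl groups between glycine, serine, methionine and folate. *Gnmt*, which methylates glycine to sarcosine, had 55.4, 34.8 and 52.8 CPM in copper libraries, against 7.78, 3.36 and 4.74 CPM in control libraries, a log2 fold change of 3.17 ± 0.33 (SE; adjusted p = 0.00322, edgeR). *Sardh*, which encodes sarcosine dehydrogenase and so returns sarcosine to glycine, had 41.8, 27.9 and 40.2 CPM in copper libraries, against 4.72, 6.24 and 3.52 CPM in control libraries, a log2 fold change of 2.93 ± 0.25 (SE; adjusted p = 0.00188, edgeR). Both enzymes of this sarcosine loop were thus at the higher level in each copper library, with copper replicate 2 the lowest.

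*pug* (pugilist), which encodes a folate enzyme, had 438, 329 and 503 CPM in copper libraries, against 125, 117 and 89.1 CPM in control libraries, a log2 fold change of 1.94 ± 0.19 (SE; adjusted p = 0.00286, edgeR). *CG3999*, which encodes a glycine cleavage enzyme, had 23.1, 17.8 and 29.6 CPM in copper libraries, against 5.54, 7.79 and 6.19 CPM in control libraries, a log2 fold change of 1.85 ± 0.22 (SE; adjusted p = 0.00601, edgeR). The folate enzyme gene *Nmdmc* (1.37), *CG6415* (1.10) and *Shmt*, which encodes serine hydroxymethyltransferase (0.92), also rose. The methionine cycle genes *Sam-S* (-0.17) and *Ahcy* (-0.05) and the transsulphuration genes *Cbs* (-0.12) and *Cth* (-0.09) did not pass the test (adjusted p of 0.36 to 0.819, edgeR). DESeq2 and limma-voom also called 7 genes upward, and edgeR called 4, 7 and 5 without copper replicate 1, 2 and 3, and 5, 4 and 7 without control replicate 1, 2 and 3. With *Tdh*, which stands outside the list, threonine breakdown to glycine was represented too, and *Gcat*, the next enzyme of that route, had 8.25, 6.13 and 7.86 CPM in copper libraries, against 2.75, 2.33 and 1.68 CPM in control libraries, a log2 fold change of 1.72 ± 0.25 (SE; adjusted p = 0.0146, edgeR). *Gcat*, *Nmdmc*, *CG6415* and *Shmt* were chosen after their values were seen.

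*Prat2* and *CG16758*, named for their low p in the comparison with other strains, also rose. *Prat2*, which encodes the first enzyme of purine synthesis, had 124, 88.9 and 158 CPM in copper libraries, against 39.5, 43.1 and 33.9 CPM in control libraries, a log2 fold change of 1.67 ± 0.21 (SE; adjusted p = 0.00777, edgeR). *CG16758*, annotated as a purine nucleoside phosphorylase, had 262, 175 and 337 CPM in copper libraries, against 48.9, 39.8 and 35.2 CPM in control libraries, a log2 fold change of 2.64 ± 0.26 (SE; adjusted p = 0.00261, edgeR). Both kept their call whichever library was left out.

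In carbohydrate metabolism, 5 of 20 sugar and polyol genes rose and 1 fell, and 3 of 14 maltases and amylases rose and none fell. *Sodh1*, which encodes sorbitol dehydrogenase, had 217, 208 and 297 CPM in copper libraries, against 61.0, 76.8 and 35.6 CPM in control libraries, a log2 fold change of 2.06 ± 0.29 (SE; adjusted p = 0.0117, edgeR). *Miox*, which encodes inositol oxygenase, had 453, 392 and 529 CPM in copper libraries, against 191, 199 and 122 CPM in control libraries, a log2 fold change of 1.43 ± 0.21 (SE; adjusted p = 0.0135, edgeR). The maltase gene *Mal-B1* had 111, 79.9 and 145 CPM in copper libraries, against 30.5, 46.4 and 28.6 CPM in control libraries, a log2 fold change of 1.67 ± 0.27 (SE; adjusted p = 0.0191, edgeR). The groups did not overlap in any of these 3 genes, and control replicate 3 was the lowest control library in each. Their calls were lost without copper replicate 1 (adjusted p of 0.0546, 0.0683 and 0.0875), and those of *Sodh1* and *Mal-B1* also without control replicate 1 (0.05 and 0.0793). Without copper replicate 1 none of the maltases passed and 1 of the sugar and polyol genes rose, while the median of the maltase list stayed between 0.55 and 1.28 over the 6 fits that left out a library.

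The xylulokinase gene *CG3534* rose by 0.72 ± 0.07 on the log2 scale (SE; adjusted p = 0.00294, edgeR), with a call kept whichever library was left out. The transcription factor gene *sug* (sugarbabe), which responds to dietary sugar, fell to 3.61, 4.86 and 2.95 CPM in copper libraries, against 19.5, 22.8 and 18.1 CPM in control libraries, a log2 fold change of -2.40 ± 0.21 (SE; adjusted p = 0.00193, edgeR). Its control libraries were close to each other and its call was kept whichever library was left out.

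Genes of fat storage and starvation split, with 3 of 23 up and 2 down. *Lsd-1*, which encodes the lipid droplet protein perilipin, had 17.5, 13.3 and 13.3 CPM in copper libraries, against 63.1, 59.3 and 51.0 CPM in control libraries, a log2 fold change of -1.98 ± 0.14 (SE; adjusted p = 0.00116, edgeR). *AkhR*, the receptor gene of the adipokinetic hormone, had 10.8, 8.85 and 11.0 CPM in copper libraries, against 25.2, 23.3 and 24.3 CPM in control libraries, a log2 fold change of -1.25 ± 0.11 (SE; adjusted p = 0.00204, edgeR). In both genes control replicate 3 lay with the other controls. The lipase gene *bmm* (brummer) rose by 0.97 ± 0.12 and the desaturase gene *Desat1* by 0.72 ± 0.09 on the log2 scale (SE; adjusted p of 0.00777 and 0.00628, edgeR). The call of *bmm* was lost without copper replicate 1 (adjusted p = 0.0522), and that of the phosphatidate phosphatase gene *Lpin* (1.05), the third to rise, without copper replicate 1 or control replicate 1 or 2 (adjusted p of 0.0589 to 0.064). Of 8 fat body markers 4 fell and none rose, with sums of 6256, 6134 and 6816 CPM in copper libraries, against 12449, 9776 and 8253 CPM in control libraries. The 4 were *Lsd-1*, *Yp1*, *Yp2* and *apolpp*, each also counted in the starvation or the yolk list. *apolpp* lost its call whichever library was left out. The number of fat body markers that fell was 1 to 3 when a library was left out.

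Of 16 haemocyte markers *vkg*, *Col4a1* and *Ppn* fell and none rose, and all 3 encode extracellular matrix proteins. The collagen IV gene *vkg* (viking) had 61.5, 56.1 and 58.9 CPM in copper libraries, against 133, 143 and 115 CPM in control libraries, a log2 fold change of -1.15 ± 0.10 (SE; adjusted p = 0.00181, edgeR). Its partner *Col4a1* had 111, 96.5 and 101 CPM in copper libraries, against 191, 217 and 187 CPM in control libraries, a log2 fold change of -0.95 ± 0.09 (SE; adjusted p = 0.00284, edgeR). In both genes the groups were separate and the call was present whichever library was left out, whereas *Ppn* (-0.99) lost its call without copper replicate 1 or 2 or control replicate 1 or 2 (adjusted p of 0.0521 to 0.0869). *Hml*, which encodes a clotting protein and marks haemocytes, had 7.57, 8.85 and 9.35 CPM in copper libraries, against 17.9, 20.8 and 9.29 CPM in control libraries, and did not pass the test (adjusted p = 0.168, edgeR).

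*Hml* belongs to a list of genes with responses that differed in direction between tolerant and sensitive strains, a list chosen on these same samples and so not independent evidence of its direction. Of its 6 genes *CG13078* fell, and *CG31091*, *Hml*, *Jon99Ci*, *lectin-24Db* and *NtR* had log2 fold changes of -0.96 to -0.27 that did not pass the test (adjusted p of 0.168 to 0.694, edgeR). *CG13078* had 0.870, 1.34 and 1.11 CPM in copper libraries, against 5.35, 7.05 and 5.52 CPM in control libraries, a log2 fold change of -2.43 ± 0.26 (SE; adjusted p = 0.00408, edgeR). In the other 5 genes control replicate 3 had the lowest level of the control group. Without control replicate 3, alone or together with copper replicate 2, 5 of the 6 genes fell, and with the male covariate 1 did. Of 10 candidate genes that were likewise picked from these libraries, 5 rose (*CG5966*, *CG32444*, *Sodh1*, *Miox* and *CG11594*), 2 fell (*CG5773*, by 2.65, and *Jon65Aiv*) and *Cyp6w1*, *Cyp6a8* and *Cyp4e3* did not pass the test. The call of *CG32444* was lost without copper replicate 1 (adjusted p = 0.0547, edgeR) or control replicate 2 (0.0504), and that of *CG11594* without copper replicate 1 (0.0758) or control replicate 1 (0.0551).

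**Figure D4:**
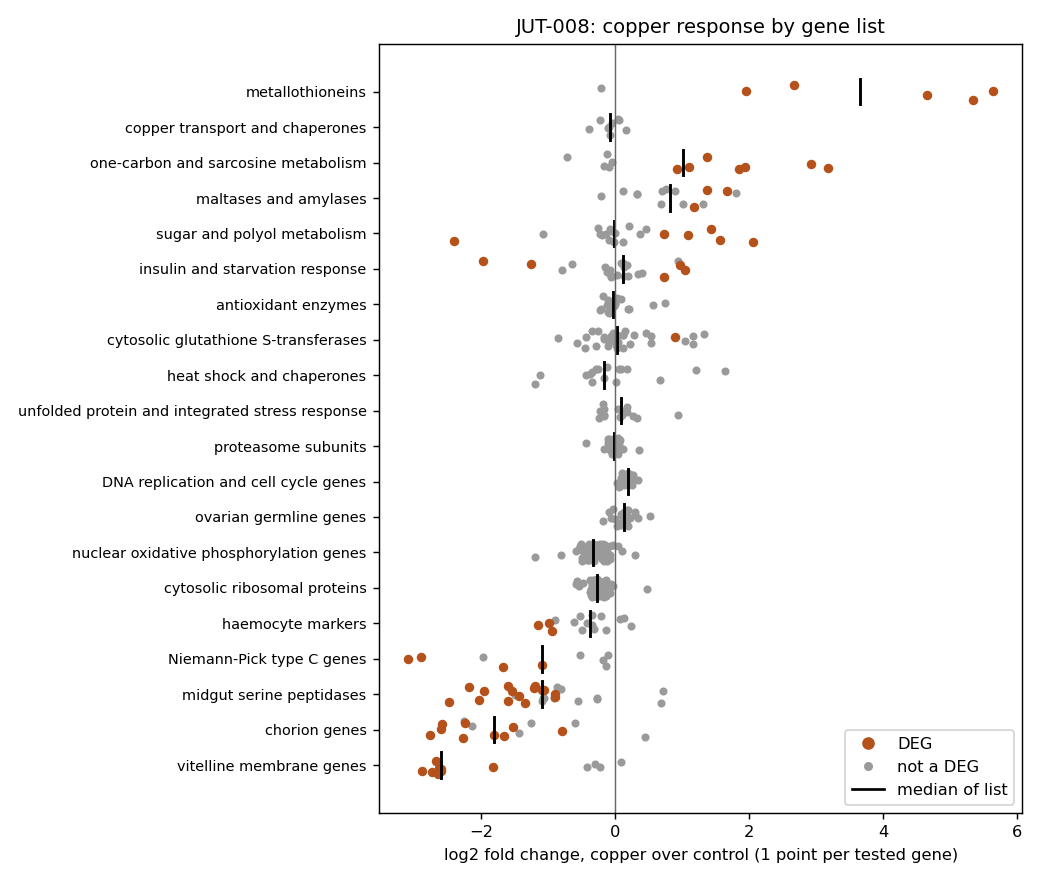
Log2 fold change, copper over control, of each tested member of 20 gene lists in JUT-008, with DEGs in orange, other genes in grey and the median of each list as a black bar. The metallothionein median is 3.66 and the one-carbon median 1.01, the vitelline membrane median is -2.60 and the peptidase median -1.08, and the antioxidant, proteasome and copper transport medians lie within 0.1 of 0.

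Lists of general stress genes are given beside a share of DEGs of 4.11% over all genes tested, at which lists of this size would hold few DEGs. For the unadjusted counts, the matching figure is 2040 of all 11021 genes tested (edgeR). None of the 20 antioxidant genes tested was a DEG by edgeR, DESeq2 or limma-voom, with 1 upward and 0 downward at an unadjusted p below 0.05 and a median log2 fold change of -0.04. None of the 34 proteasome subunits was a DEG by any of these tools, with 0 at an unadjusted p below 0.05 and a median of -0.02. Of 17 heat shock and chaperone genes none was a DEG by edgeR or limma-voom and 1 rose by DESeq2, with 3 upward and 4 downward at an unadjusted p below 0.05. Of 16 genes of the unfolded protein response none was a DEG by edgeR or limma-voom and 1 rose by DESeq2, with 2 in each direction at an unadjusted p below 0.05. Of 23 JNK and JAK-STAT targets none was a DEG by edgeR or limma-voom and 1 rose by DESeq2, with 3 upward and 1 downward unadjusted.

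The counts of detoxification families stand beside the same share of 4.11%. Of 35 cytosolic glutathione S-transferases, *GstT4* rose, by 0.90 ± 0.17 on the log2 scale (SE; adjusted p = 0.0338, edgeR). Of 79 cytochrome P450 genes 2 rose and 3 fell by edgeR and 7 rose and 9 fell by DESeq2, with 0 to 4 up and 1 to 10 down by edgeR when a library was left out, and *Cyp313a1* kept its call whichever library was left out. It had 3.42, 2.82 and 3.39 CPM in copper libraries, against 16.9, 19.1 and 9.97 CPM in control libraries, a log2 fold change of -2.25 ± 0.27 (SE; adjusted p = 0.00563, edgeR). Of 30 UDP-glycosyltransferases, *Ugt37B1* rose, and neither it nor *GstT4* was called in more than 1 of the 6 fits that left out a library. DESeq2 called 3 glutathione S-transferases upward and 1 downward, and 4 UDP-glycosyltransferases upward and 2 downward. Of 34 antimicrobial and other humoral immune genes 4 fell and none rose, of which *LysD* and *LysE* encode lysozymes of the digestive tract and *PGRP-SC1b* an amidase, while *LysC* is annotated as a pseudogene. The *Lys* genes are near-identical copies and reads mapping to several places were not counted, so their separate levels are uncertain. Each of these 4 calls was present only without control replicate 3 among the fits that left out a library. Of 18 Malpighian tubule genes the potassium channel gene *Irk3* (-1.31) and *Oatp58Db* (-1.12) fell, calls lost without copper replicate 1 (adjusted p of 0.064 and 0.0525, edgeR).

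No gene of the ribosomal protein or oxidative phosphorylation lists was a DEG in the edgeR test of all 6 libraries. Of 79 ribosomal protein genes 78 had a lower level after copper, with a median log2 fold change of -0.26, and of 72 oxidative phosphorylation genes 69 did, with a median of -0.33. None was a DEG by limma-voom either, whereas 33 of the oxidative phosphorylation genes and 7 of the ribosomal protein genes had a lower level at an unadjusted p below 0.05 (1 ribosomal protein gene a higher one), and DESeq2 called 1 oxidative phosphorylation gene. When a library was left out, edgeR called 0 to 7 oxidative phosphorylation and 0 to 3 ribosomal protein genes downward. Without both copper replicate 2 and control replicate 3, 3 oxidative phosphorylation genes fell and 1 ribosomal protein gene rose. With the male covariate 2 oxidative phosphorylation genes fell. The ribosomal protein genes summed to 119145, 103046 and 136755 CPM in copper libraries, against 155275, 153001 and 121752 CPM in control libraries. The oxidative phosphorylation genes summed to 16018, 15790 and 18718 CPM in copper libraries, against 21861, 22516 and 18183 CPM in control libraries. In both sums the groups overlapped, since control replicate 3 was below copper replicate 3, and in each group the library with the fewest male transcripts had the lowest sum. Of 12 muscle markers, *Mhc* fell, by 0.71 ± 0.13 (SE; adjusted p = 0.0292, edgeR), a call present only without control replicate 3 among the fits that left out a library, and all 12 had a negative log2 fold change. None of the 13 photoreceptor and nervous tissue markers was a DEG by any of the 3 tools, with 0 at an unadjusted p below 0.05.

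To find where JUT-008 differed from the rest of the series, its response was set against the mean response of the other 5 strains in a single fit of all 34 libraries. Of 12511 genes tested, 274 differed at an adjusted p below 0.05 (edgeR), 90 with a higher log2 fold change in JUT-008 (0.719%) and 184 with a lower one (1.47%). Of the 274, 171 were DEGs of JUT-008 itself, 46 of them among those that rose and 125 among those that fell. These 171 were 62.4% of the 274 and 37.7% of the 453 DEGs. The number that differed was 129 to 424 when a JUT-008 library was left out, lowest without control replicate 2 and highest without control replicate 3. The control groups of AKA-018 and MUN-020 had 2 libraries each, and this fit made no adjustment for male transcripts.

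*Vha100-4* was among the genes that fell further in JUT-008. Its log2 fold change in this fit was -3.38 in JUT-008, against -1.94 in COR-018, -1.29 in MUN-008, -0.37 in AKA-018, -0.34 in MUN-020 and -0.13 in GIM-012. The difference from the mean of the other 5 strains was -2.56 ± 0.33 (SE; adjusted p = 5.95e-05, edgeR). In JUT-008 copper libraries it averaged 1.92 ± 0.53 CPM, against 19.96 ± 6.03 CPM in JUT-008 control libraries (SD, n = 3 each, scaled over all 34 libraries). The control mean of JUT-008 was the lowest of the 6 strains, the others lying between 21.4 and 46.9 CPM. *lab*, also a marker of the acid-secreting cells, had a response -1.41 apart from that of the other strains (adjusted p = 0.0297, edgeR). Against COR-018 and AKA-018 alone *lab* did not pass the test (-1.12, adjusted p = 0.302, edgeR).

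Among the genes with the lowest p of this contrast, *CG14245* rose to 113, 73.9 and 153 CPM in copper libraries of JUT-008, against 12.8, 9.46 and 6.55 CPM in its control libraries. Its log2 fold change of 3.57 in JUT-008 stood against values of -0.23 to 1.37 in the other strains, a difference of 2.73 ± 0.35 (SE; adjusted p = 4.4e-05, edgeR). The control level of *CG14245* in JUT-008, 9.15 ± 2.85 CPM (SD, n = 3), was below those of the other strains, whose control means were 25.0 to 242 CPM. *CG34136* rose to 15.3, 13.9 and 20.3 CPM in copper libraries, against 2.95, 2.73 and 2.55 CPM in control libraries, with a difference of 2.26 ± 0.23 (SE) from the other strains. Its log2 fold change was 2.59 in JUT-008, against 1.34 in COR-018. The control mean of *CG34136* in JUT-008, 2.62 CPM, was likewise below those of the other strains (8.22 to 19.2 CPM). Its copper mean in JUT-008, 15.8 CPM, lay within those of the other strains (10.9 to 36.4 CPM). So did the copper mean of *CG14245*, 108 CPM, against 21.5 to 624 CPM. *CG16758* (1.91), *Prat2* (1.43) and *CG18858* (1.28) also rose further in JUT-008 than in the mean of the other 5 strains, although *Prat2* had a log2 fold change of 1.67 in JUT-008, against 1.87 in COR-018. The control mean of *Prat2* was lowest in JUT-008, 37.1 CPM, against 55.6 to 157 CPM in the other strains.

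In the other direction, *CG3106* had 2.29, 2.62 and 1.08 CPM in copper libraries of JUT-008, against 10.6, 12.7 and 10.7 CPM in its control libraries. Its log2 fold change of -2.50 stood against -0.79 to 0.95 in the other strains, a difference of -2.47 ± 0.25 (SE). In COR-018 control libraries *CG3106* averaged 1.63 CPM, already near its mean of 1.91 CPM in JUT-008 copper libraries (scaled over all 34 libraries). Its call within JUT-008 was lost without copper replicate 1 or control replicate 2 (adjusted p of 0.0561 and 0.0511). *CG3706* fell to 1.39, 1.48 and 1.59 CPM in copper libraries, against 10.7, 11.6 and 7.03 CPM in control libraries, with a difference of -2.22 ± 0.24 (SE). *CG5767* (-1.93), *CG31446* (-2.71) and *CG13078* (-3.25) also fell further. *CG13078* had a log2 fold change of -2.29 in COR-018, close to the -2.42 of JUT-008, and of 0.20 to 2.90 in the other 4 strains.

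**Figure D5:**
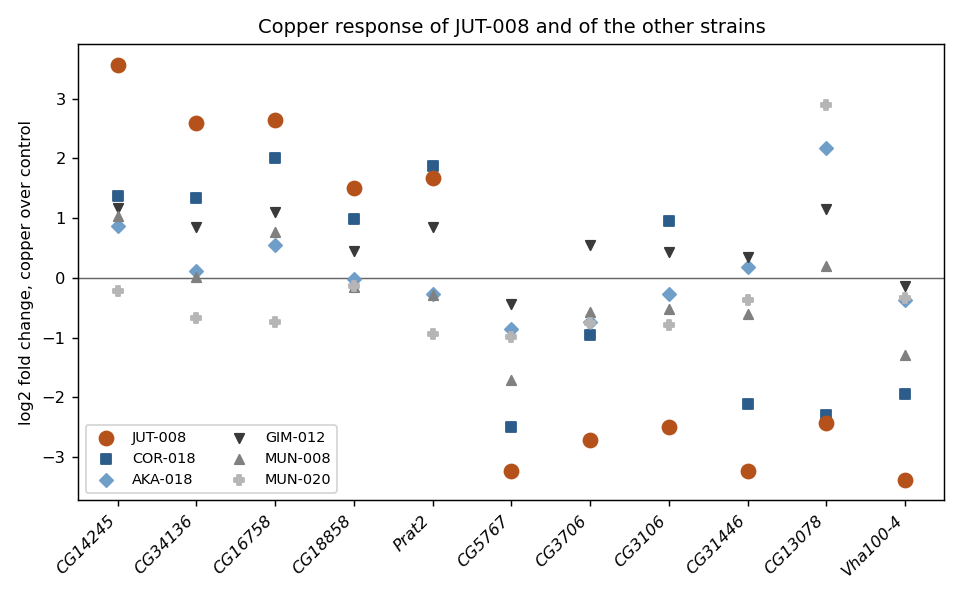
Log2 fold change, copper over control, of 11 genes in JUT-008 (large orange circles) and in the other 5 strains, from the fit of all 34 libraries. JUT-008 has the highest value in *CG14245*, *CG34136*, *CG16758* and *CG18858* and the lowest in each gene from *CG5767* to *Vha100-4*, while in *Prat2* JUT-008 (1.67) is below COR-018 (1.87).

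Of the gene lists, several held members that differed from the other 5 strains. In one-carbon metabolism *CG3999* (difference of 1.73), *Sardh* (1.15) and *pug* (0.94) rose further in JUT-008 (adjusted p of 0.000617, 0.0133 and 0.00477, edgeR), and so did *Tdh* (2.02, adjusted p = 0.00151) and *Gcat* (1.21, adjusted p = 0.00153), all relative to the mean of the other 5 strains. *Tdh* had a log2 fold change of 3.44 in JUT-008 in this fit, against 3.65 in COR-018, and *pug* 1.95 against 1.84. None of *CG3999*, *Sardh*, *pug* and *Tdh* passed the test against COR-018 and AKA-018 (adjusted p of 0.0797 to 0.165, edgeR). The control mean of *Gcat* in JUT-008, 2.15 CPM (scaled over all 34 libraries), was the lowest of the 6 strains. Its copper mean in JUT-008, 7.09 CPM, was also the lowest copper mean. Among the genes that fell further than in that mean were the sterol genes *Npc1b* (-2.21) and *Npc2d* (-2.02), the peptidases *lambdaTry* (-1.41) and *thetaTry* (-1.05), *Peritrophin-15a* (-1.63), *sug* (-1.35) and *Lsd-1* (-0.9998). *thetaTry* had a log2 fold change of -2.48 in JUT-008, against -3.49 in COR-018, and did not pass the test against COR-018 and AKA-018 (0.16, adjusted p = 1, edgeR). Nor did *Npc2d*, *lambdaTry*, *Peritrophin-15a*, *sug* and *Lsd-1* (adjusted p of 0.0797 to 0.928, edgeR), whereas *Npc1b* did (0.0211). *Peritrophin-15a* had a log2 fold change of -2.52 in JUT-008, against -2.27 in COR-018 and -1.67 in AKA-018. The collagen IV genes *vkg* (-0.87) and *Col4a1* (-0.72) and the papilin gene *Ppn* (-1.16) differed in the same direction (adjusted p of 0.0252, 0.0424 and 0.0194, edgeR). The log2 fold change was -1.15 in JUT-008, against -1.60 in COR-018, for *vkg*, -0.95 against -1.34 for *Col4a1* and -0.98 in both strains for *Ppn*, and none of the 3 passed the test against COR-018 and AKA-018 (adjusted p of 0.76 to 1). Of the eggshell genes 1, *ndl*, differed from the mean of the other 5 strains (-1.02, adjusted p = 0.0424, edgeR), with a log2 fold change of -1.83 in JUT-008, against -2.43 in COR-018, and no call against COR-018 and AKA-018 (-0.29, adjusted p = 1).

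Against the other 2 sensitive strains alone, 85 of 12511 genes differed at an adjusted p below 0.05 (edgeR), 59 with a higher log2 fold change in JUT-008 (0.472%) and 26 with a lower one (0.208%). Of the 59 higher genes, 21 were DEGs that rose in JUT-008 and 14 were DEGs that fell in it. Of the 26 lower genes, 16 were DEGs that fell. Of the 85, 52 also differed from the mean of the other 5 strains. Of those 52, 29 were higher in JUT-008 and 23 lower. The number that differed was 45 without copper replicate 3 and 100 without copper replicate 2, the extremes over the JUT-008 libraries. In AKA-018, with 2 control libraries, some male transcripts were far lower after copper. There the log2 fold change was -11.2 for the accessory gland gene *Sfp87B* and -7.72 for the testis gene *S-Lap1*, but 0.0002 for the testis gene *bol*. The part of male transcripts in this contrast was not tested.

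Chorion genes led the higher side of this contrast, and their counts were near 0 in COR-018 copper libraries. *Cp38* had a log2 fold change of -2.27 in JUT-008, with 161 to 205 CPM left in its copper libraries. In COR-018 copper libraries the gene had 6, 7 and 5 reads, against 17326, 19199 and 54725 reads in COR-018 control libraries, and in AKA-018 its log2 fold change was -2.15. The fitted differences of *Cp38* (4.98 ± 0.67), *CG13083* (5.11 ± 0.73) and *Cp36* (4.43 ± 0.64) from the mean of both strains (SE; adjusted p of 0.000365, 0.000434 and 0.000434, edgeR) rest on these counts near 0 in COR-018. *CG31300* rose in JUT-008, with 28.3, 25.9 and 28.0 CPM in copper libraries, against 7.51, 11.3 and 5.78 CPM in control libraries. Its log2 fold change was 1.75 in JUT-008, against -0.42 in COR-018 and 0.05 in AKA-018, a difference of 1.94 ± 0.27 (SE; adjusted p = 0.000434, edgeR), and its call within JUT-008 was lost without copper replicate 1 (adjusted p = 0.0594).

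On the lower side, *CG3106* (-2.85), *CG3706* (-1.87) and *CG5767* (-1.56) again differed, together with *Dgat2* (-2.33) and *FarO* (-1.20). *Dgat2* encodes an enzyme of triglyceride synthesis, and *FarO* a fatty acyl reductase of oenocytes, the lipid-processing cells of the abdomen. *FarO* had 4.74, 4.27 and 4.57 CPM in copper libraries of JUT-008, against 9.71, 10.6 and 8.39 CPM in its control libraries, and log2 fold changes of 0.09 in COR-018 and 0.16 in AKA-018. Within JUT-008 the calls of *Dgat2* and *FarO* were lost without copper replicate 1 or 2 or control replicate 1 or 2 (adjusted p of 0.0545 to 0.205), that of *Dgat2* also without copper replicate 3. *Vha100-4* differed from the mean of both strains by -2.22 ± 0.37 (SE; adjusted p = 0.00166, edgeR) and *Npc1b* by -1.91 (adjusted p = 0.0211). *Mal-A6* (1.89), *tobi* (1.80), *Mal-A7* (1.77) and *Mal-A1* (1.61), maltase genes, had a higher response in JUT-008 than in the mean of COR-018 and AKA-018 (adjusted p of 0.0147 to 0.0369, edgeR). Within JUT-008 *tobi* was a DEG, whereas *Mal-A1*, *Mal-A6* and *Mal-A7* were not. Of these genes only *Mal-A6* also differed from the mean of the other 5 strains (adjusted p = 0.0308, edgeR).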

How the data were processed

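The deposited table holds whole-number counts of reads for each gene. To make it, the authors trimmed reads with Trim Galore 0.5.0 and cutadapt 1.18, checked them with FastQC 0.11.8, aligned them to dm6 with STAR 2.6 and counted them with featureCounts 1.6.2, with strand and without reads mapping to several places. All 34 columns were matched to samples by label. Symbols and positions of 16198 of 16495 genes came from the Ensembl annotation of dm6. The table's name refers to a removal of males that the sources used here do not explain, and 15 of 60 accessory gland genes are in it.

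The 6 JUT-008 libraries were fitted with treatment as the only term (edgeR 4.0.16 in R 4.3.3, TMM normalization, filterByExpr, quasi-likelihood test, Benjamini-Hochberg adjustment). CPM use the effective library sizes of that fit. Contrasts with other strains used 12 means over 34 libraries and no fold-change threshold. Total counts were 22796637 to 42567920 per library over the series. Replicates within JUT-008 groups differed beyond counting error (chi-squared per degree of freedom of 25.3 to 68.8), so replicates set the precision. Code was tested on simulated data. Alternatives were DESeq2 1.42.0, limma-voom (limma 3.58.1), other normalizations, filters and thresholds, the spread of all 34 libraries, a replicate term, male transcripts as a covariate or left out, and each library left out. Chosen after seeing the data were leaving out copper replicate 2 and control replicate 3, setting only these against each other, and an accessory gland covariate.

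Genes named are all metallothioneins and copper transporters, *MTF-1* and *Vha100-4*, the 12 DEGs with the largest change in each direction whose groups do not overlap and whose mean is at least 1 CPM in a group, up to 4 DEGs per direction with the lowest adjusted p in each list, members of the candidate and discordant lists, the 5 genes with the lowest p per direction of each contrast, and the 3 most abundant genes of each male list. Other members of lists are named from their contrast values, chosen after these were seen. Members and the 49 lists were chosen with earlier results of these data known.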

Additional observations from a re-analysis of the deposited data

Results flagged for a closer look

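The response of JUT-008 differed from the mean response of the other 5 strains in 274 genes and from that of COR-018 and AKA-018 in 85 genes, each difference being tested as a contrast in the fit of all 34 libraries with edgeR. In the contrast with the other 5 strains, the difference in log2 fold change was 2.26 for *CG34136*, 2.73 for *CG14245*, 1.91 for *CG16758*, 1.43 for *Prat2* and 1.28 for *CG18858*, all higher in JUT-008. It was -3.25 for *CG13078*, -2.71 for *CG31446*, -2.47 for *CG3106*, -2.22 for *CG3706* and -1.93 for *CG5767*, all lower in JUT-008. In the contrast with COR-018 and AKA-018, it was 5.11 for *CG13083*, 4.98 for *Cp38* and 4.43 for *Cp36*, genes with counts near 0 in COR-018 copper libraries, and 1.94 for *CG31300* and 1.87 for *CG34136*. On the lower side it was -2.85 for *CG3106*, -2.33 for *Dgat2*, -1.87 for *CG3706*, -1.56 for *CG5767* and -1.20 for *FarO*. These genes were the ones with the lowest p in each direction.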

How the results depend on the processing

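The 453 DEGs (110 up, 343 down) became 767 (201, 566) with DESeq2, 891 (243, 648) with the spread of all 34 libraries, 886 (279, 607) with the male covariate, 799 (210, 589) without copper replicate 2 and control replicate 3, 1128 (504, 624) with the accessory gland covariate and 196 (53, 143) at a log2 fold change over 1.5. Leaving out 1 library gave 192 to 746 (37 to 134 up, 136 to 612 down). Upper-quartile scaling and library size alone moved the median of all genes by less than 0.1 on the log2 scale. Same-numbered copper and control libraries did not pair (correlations of their deviations 0.321, -0.389 and -0.845), and a replicate block gave 106 DEGs (19, 87), all among the 453.

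The 274 genes that differed from the other 5 strains (90 higher, 184 lower) became 461 (183, 278) with DESeq2, 81 (23, 58) with the replicate block and 129 to 424 without 1 library (42 to 123 higher, 67 to 301 lower). The 85 that differed from COR-018 and AKA-018 (59, 26) became 193 (125, 68) with DESeq2, 28 (20, 8) with the block and 45 to 100 without 1 library (30 to 76 higher, 14 to 32 lower), and upper-quartile scaling gave 34 higher. Of single genes, the testis genes *S-Lap1* and *S-Lap2*, no DEGs at -0.72 and -0.35, reversed to 1.35 and 1.91 with the accessory gland covariate. The cause of these changes was not tested. Of 105 named DEGs, 58 were called whichever library was left out. With 3 libraries a group, a p above the threshold does not show that a gene was unchanged, and survivors, pooled females and a single strain limit what the libraries stand for.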
